A study of Homo sapiens with 4 samples.

Results

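The genes described here are the protein-coding olfactory receptor genes of human chromosomes 1 and 11. They were taken from an NCBI RefSeq gene table of the hg38 assembly by their symbols, which consist of OR, a family number, subfamily letters and a member number. The rule found 232 genes among 19974 protein-coding genes of chromosomes 1 to 22 and X, 61 on chromosome 1 and 171 on chromosome 11. OR9G9, OR8U8 and OR8U9, 3 genes of chromosome 11, stood outside the order of their chromosome in the table and were not placed, which left 229 receptor genes among 19821 placed genes. The rule uses symbols and chromosomes and no measured value, although the family was picked for description with earlier results of these data known.

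γH2AX is the phosphorylated form of the histone variant H2AX that marks chromatin around DNA double-strand breaks. It was mapped by chromatin immunoprecipitation and sequencing in SK-UT-1, a cell line established from a human uterine leiomyosarcoma. There were 4 libraries, 1 for each condition: the solvent DMSO at 0.1%, the SUV39H2 inhibitor OTS186935 at 1 µM, the topoisomerase II poison doxorubicin at 0.5 µM, and both drugs together at these doses, called the combination below. The title of the series speaks of a PARP inhibitor as the partner drug, while the labels of both libraries in question and the design text give doxorubicin, and the labels are followed here. If the title were right for these libraries, every value called doxorubicin or combination would belong to another drug. SUV39H2 is an enzyme that methylates histone H3, and the time of exposure is not given in the sources used here. All values come from 1 cell line with 1 library per condition, so no difference between conditions could be tested, and the 3 drug libraries share the DMSO library as their reference.

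Olfactory receptors are seven-transmembrane receptors coupled to G proteins, and in the nose each sensory neuron expresses one of them from a single allele. Their genes form the largest gene family in mammals and lie in tandem clusters. They are usually silent outside the olfactory epithelium, and in sensory neurons the copies that are not chosen are packed in heterochromatin. Class I receptors, related to those of fish, sit together on chromosome 11, and class II receptors are spread over many clusters. The peak lists hold no RNA measurements, so whether SK-UT-1 cells transcribed any receptor was not measured.

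A promoter sequence, from 250 bases before to 50 bases after the annotated start, was at hand for 186 of the 229 placed receptors (81.2%) in a RefSeq table of the GRCh38.p14 assembly. The 4 printed here are those of the receptors to which the strongest or most repeated peaks belonged. OR2L13 was the 1 receptor of the 186 whose promoter lay under a γH2AX peak, in each of the 4 libraries. OR2C3, OR2T10 and OR14I1 had strong peaks in the gene or near it that left the promoter uncovered. Capitals mark CpG dinucleotides, and each sequence runs 5′ to 3′ on the strand of its gene. The positions are chr1:247936927-247937226 on the plus strand for OR2L13 and, on the minus strand, chr1:247536391-247536690 for OR2C3, chr1:248597651-248597950 for OR2T10 and chr1:248702717-248703016 for OR14I1.
OR2L13: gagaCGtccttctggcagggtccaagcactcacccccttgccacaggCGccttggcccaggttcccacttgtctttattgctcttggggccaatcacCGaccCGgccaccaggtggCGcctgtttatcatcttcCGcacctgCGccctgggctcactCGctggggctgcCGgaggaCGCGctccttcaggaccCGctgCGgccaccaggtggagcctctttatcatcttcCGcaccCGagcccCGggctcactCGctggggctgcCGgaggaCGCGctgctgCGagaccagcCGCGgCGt
OR2C3: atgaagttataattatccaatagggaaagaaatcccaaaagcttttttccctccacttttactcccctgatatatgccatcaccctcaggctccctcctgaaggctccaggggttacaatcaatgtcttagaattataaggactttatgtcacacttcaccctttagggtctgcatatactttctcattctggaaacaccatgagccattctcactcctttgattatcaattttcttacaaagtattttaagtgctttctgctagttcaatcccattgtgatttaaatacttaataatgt
OR2T10: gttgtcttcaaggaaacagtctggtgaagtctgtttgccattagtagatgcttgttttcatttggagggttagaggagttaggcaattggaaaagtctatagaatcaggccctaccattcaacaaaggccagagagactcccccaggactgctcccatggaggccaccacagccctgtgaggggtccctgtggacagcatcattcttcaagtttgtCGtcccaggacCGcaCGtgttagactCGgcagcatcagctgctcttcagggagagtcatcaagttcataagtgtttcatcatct
OR14I1: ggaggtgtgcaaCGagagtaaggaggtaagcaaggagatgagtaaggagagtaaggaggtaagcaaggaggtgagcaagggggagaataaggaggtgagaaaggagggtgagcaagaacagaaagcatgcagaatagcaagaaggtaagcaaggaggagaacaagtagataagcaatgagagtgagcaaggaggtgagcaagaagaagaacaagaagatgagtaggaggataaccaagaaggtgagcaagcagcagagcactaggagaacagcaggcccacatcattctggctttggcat

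The OR2L13 promoter had a GC content of 67.3% and 24 CpG dinucleotides, the highest of the 186 receptor promoters on both counts. The OR2C3 promoter had 37.0% GC and 0 CpG, that of OR2T10 49.3% and 4, and that of OR14I1 48.3% and 1. Over the 186 promoters the GC content ranged from 24.3% to 67.3% with a median of 37.3%, and the median promoter held 1.00 CpG. A typical receptor promoter was therefore AT-rich and nearly free of CpG. The comparison of GC content with neighbours and with all genes is void, because 77.8% of the neighbours and 79.8% of all genes had a promoter sequence, under the required 80%. The same limit holds for the motifs and the promoter peaks below, where values over all genes are shares of the promoters in the table and support no comparison of gene sets.

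Of 2 short motifs searched on both strands, TAATTA, the core bound by many homeodomain proteins, was present in 24.7% of receptor promoters and in 3.35% of the 15813 promoters of all genes. The TATA box letters TATAAA were present in 37.6% of receptor promoters and in 9.64% of all. TAATTA was present in 29.3% of the 41 promoters of receptors with a peak in any library and in 23.4% of the 145 without. Of the 4 printed promoters, that of OR2C3 holds TAATTA. A match describes letters and not a bound site, the motifs can overlap each other, and both consist of A and T, which are frequent in these promoters.

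Most receptor genes had no γH2AX peak. Each receptor was given a window of the gene body and 5 kb on either side, and a peak was counted where it overlapped the window by at least 1 bp. Each line of a deposited list is called a peak here and holds 1 summit. A peak was found at 38 of 229 receptors with DMSO (16.6%, exact Clopper-Pearson 95% interval 12.0 to 22.1), where 78.6% of all protein-coding genes had one. The count was 29 under OTS186935 (12.7%, 8.65 to 17.7), 26 under doxorubicin (11.4%, 7.55 to 16.2) and 19 under the combination (8.30%, 5.07 to 12.7). The background over all genes was 72.1%, 65.4% and 50.7% in these libraries. In each of the 4 libraries the share of receptors with a peak was far below the share of all genes. These intervals, like all others given here, cover counting error only, and neighbouring receptors can share a peak.

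Gene length differed between the sets, since the median receptor gene was 2901 bp long, the median neighbour 15746 bp and the median protein-coding gene 24482 bp. Among genes of 3 kb or less, a limit chosen after the lengths were seen, a peak was found at 10 of 116 receptors with DMSO (8.62%), 4 under OTS186935 (3.45%), 7 under doxorubicin (6.03%) and 4 under the combination (3.45%). Of 1671 other protein-coding genes of that length, 57.4%, 48.2%, 39.6% and 27.8% had a peak in the same order. The 31 short neighbours of the receptors lay between, with 25.8%, 25.8%, 29.0% and 25.8%. The low share of receptors with a peak was thus present among short genes too.

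Over the 4 libraries, 176 of 229 receptors (76.9%) had a peak in none, against 12.8% of all protein-coding genes. A peak was found at 23 receptors in 1 library, at 9 in 2, at 13 in 3 and at 8 in all 4 (3.49%, against 39.8% of all genes). The 53 receptors with a peak in any library were 21 of 61 on chromosome 1 (34.4%) and 32 of 168 on chromosome 11 (19.0%).

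**Figure D1:**
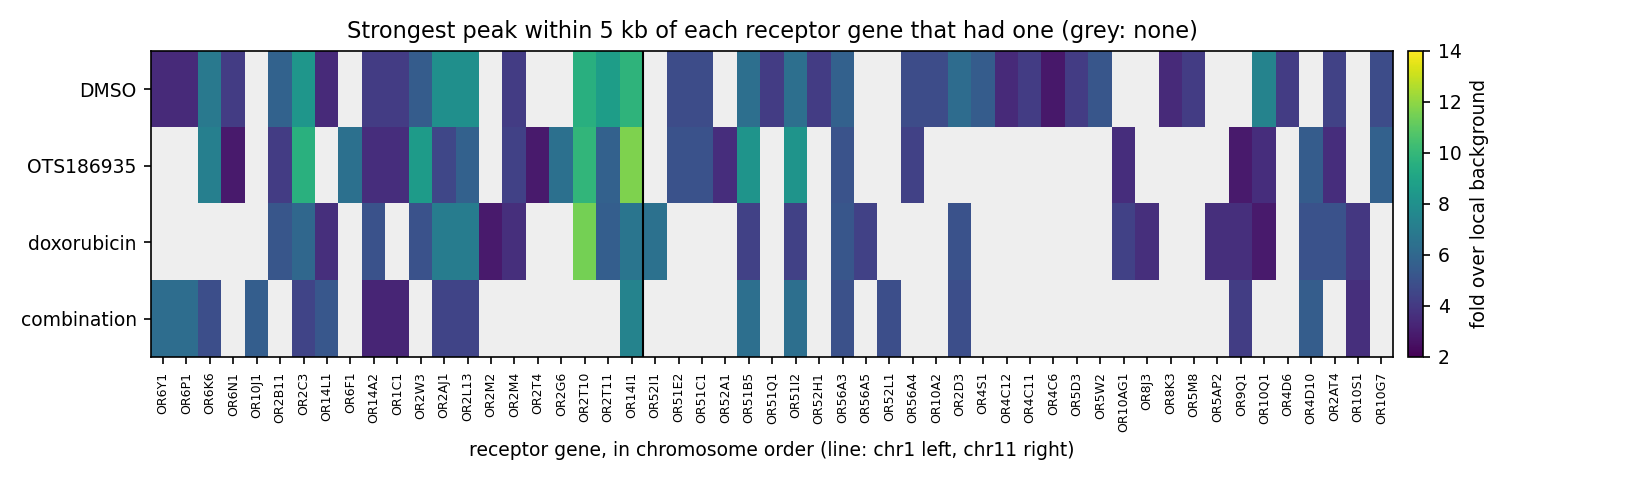
Fold over local background of the strongest peak within 5 kb of each of the 53 receptor genes that had a peak in any library, with libraries as rows and genes in chromosome order as columns. Grey marks a library with no peak there, and the highest folds are those of OR14I1 (11.7, OTS186935) and OR2T10 (11.5, doxorubicin) on chromosome 1.

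Peaks were also sparse at receptors per length of window. The neighbours lay above all genes on this scale and below them in the share of genes, so the order of the other sets was not the same on both. The joined receptor windows covered 3.57 Mb and held 46 peaks with DMSO, 33 under OTS186935, 28 under doxorubicin and 19 under the combination, or 12.9, 9.25, 7.85 and 5.33 peaks per Mb. For comparison, 203 other protein-coding genes lay in the receptor clusters or within 500 kb of them, and their windows, without bases shared with receptors, covered 7.29 Mb. These neighbours held 45.1, 38.4, 29.6 and 17.8 peaks per Mb, and the windows of all protein-coding genes 35.3, 28.0, 21.6 and 13.0. The receptor density was 0.286 times that of the neighbours with DMSO (95% interval 0.205 to 0.390), 0.241 under OTS186935 (0.162 to 0.346), 0.265 under doxorubicin (0.172 to 0.394) and 0.298 under the combination (0.174 to 0.485). All 4 intervals lay below 1 and overlapped each other, so the deficit at receptors was of like size in the 4 libraries as far as these counts can tell.

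**Figure D2:**
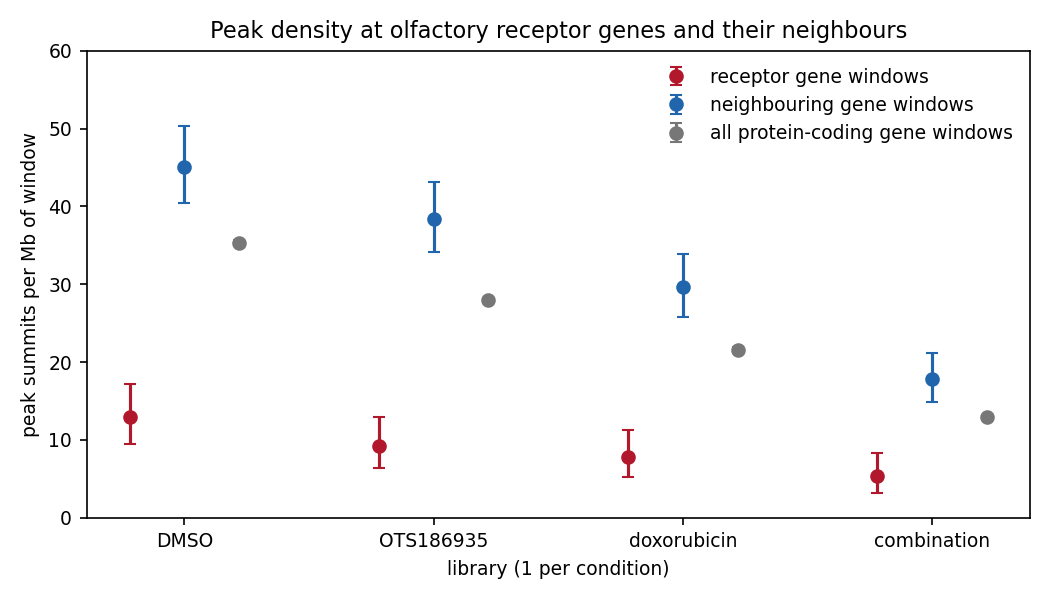
Peaks per Mb in the windows of receptor genes, neighbouring genes and all protein-coding genes, by library (1 per condition), with exact Poisson 95% intervals. The axis speaks of summits, but a peak was counted where it overlapped a window by at least 1 bp. The receptor windows lie between 5.33 and 12.9 per Mb and below both other sets in each library.

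The low density was shared by the rest of the receptor territory. Of the neighbours, 26 had their gene body in the span of a cluster, between receptors, and these held 21.2, 16.2, 12.5 and 3.74 peaks per Mb with DMSO, OTS186935, doxorubicin and the combination. The 177 neighbours beside the spans held 48.1, 41.2, 31.8 and 19.6. A comparison with the 26 neighbours inside alone was added after the data were seen. The receptor density was 0.608 times theirs with DMSO (95% interval 0.342 to 1.13) and 0.571 under OTS186935 (0.292 to 1.18). It was 0.630 under doxorubicin (0.297 to 1.45) and 1.42 under the combination (0.419 to 7.51), where the neighbours inside held 3 peaks. All 4 intervals included 1, so no difference from the neighbours inside was shown in any library. The bases of the cluster spans outside all coding gene windows held 10.4, 10.4, 7.01 and 4.83 peaks per Mb, close to the receptor windows. Windows of the 226 receptor pseudogenes of these chromosomes, outside coding gene windows, held 12.5, 10.8, 7.38 and 3.41. Peaks were therefore sparse over the clusters as a whole, whether the base lay at a receptor, a pseudogene or between genes.

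Peak counts at receptors differed between the libraries about as the whole lists did. Relative to DMSO the receptor windows held 71.7% of the peaks under OTS186935, 60.9% under doxorubicin and 41.3% under the combination, the neighbours 85.1%, 65.7% and 39.5%, and the full lists 80.7%, 63.2% and 38.5%. The lists held 76870, 62008, 48594 and 29619 peaks. When each list was cut to the 29619 peaks of highest −log10 p, the receptors with a peak numbered 16 with DMSO, 17 under OTS186935, 19 under doxorubicin and 19 under the combination, beside 49.6%, 48.9%, 50.3% and 50.7% of all genes. At equal list length the falling order of the receptor counts from DMSO to the combination was gone. Depth per library is not stated in the sources used here, and how far it sets the length of the lists was not tested.

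Among genes without a DMSO peak, receptors gained one in a drug list at a lower share than all genes. Among receptors with a DMSO peak, a higher share than of all such genes lacked one in the drug list. A peak was present under OTS186935 and absent with DMSO at 7 receptors (3.06%, against 5.42% of all genes), under doxorubicin at 9 (3.93%, against 4.67%) and under the combination at 5 (2.18%, against 2.59%). The reverse, a DMSO peak and none in the drug library, was found at 16 receptors for OTS186935 (6.99%, against 12.0%), 21 for doxorubicin (9.17%, against 17.9%) and 24 for the combination (10.5%, against 30.5%). These shares depend on how many genes had a DMSO peak to begin with, and the gains under doxorubicin and the combination lay near those of all genes. Among the 191 receptors without a DMSO peak, 3.66% (1.49 to 7.41) had one under OTS186935, 4.71% (2.18 to 8.76) under doxorubicin and 2.62% (0.855 to 6.00) under the combination, against 25.4%, 21.9% and 12.1% of the 4234 genes without. Among the 38 receptors with a DMSO peak, 42.1% (26.3 to 59.2) had none under OTS186935, 55.3% (38.3 to 71.4) under doxorubicin and 63.2% (46.0 to 78.2) under the combination, against 15.2%, 22.8% and 38.8% of 15587 genes. Of the 61 neighbours without a DMSO peak, 19.7%, 27.9% and 13.1% had one in these libraries. Of the 142 with a DMSO peak, 15.5%, 26.1% and 45.8% had none. Under the combination the neighbour intervals (5.84 to 24.2 and 37.4 to 54.3) overlapped those of the receptors. The median gene of the whole table and the median neighbour are longer than the median receptor. The part of length in these shares was not tested, and the 3 comparisons share the DMSO library.

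Where receptors had peaks, the peaks recurred between libraries about as often as peaks elsewhere. Of the 46 DMSO peaks in receptor windows, 50.0% overlapped an OTS186935 peak, 37.0% a doxorubicin peak and 28.3% a combination peak, beside 46.6%, 37.2% and 25.3% of all DMSO peaks. In the other direction, 66.7% of the 33 OTS186935 peaks, 57.1% of the 28 doxorubicin peaks and 57.9% of the 19 combination peaks overlapped a DMSO peak, beside 55.7%, 55.0% and 59.8% of the full lists. Receptor peaks that overlapped none of the other 3 lists numbered 17 with DMSO (37.0%), 8 under OTS186935 (24.2%), 8 under doxorubicin (28.6%) and 4 under the combination (21.1%), beside 38.4%, 32.9%, 31.7% and 25.4% of the full lists. The counting intervals of all these receptor shares, which are wide, include the share of the full list.

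By median fold the receptor peaks were no weaker than peaks elsewhere, but most stood on few fragments over a low background. Fold is the authors' value for each peak, the pileup at the summit over the local background, and it is used here only to describe and rank peaks in a list. Folds of a site in several libraries are set side by side, and no order between libraries is read from them. The median fold in receptor windows was 4.81 with DMSO, 4.57 under OTS186935, 5.02 under doxorubicin and 4.90 under the combination, beside 4.22, 4.30, 4.09 and 4.20 over the full lists. The number of fragments at the summit, worked out from fold and −log10 p, had a median of 6, 6, 6 and 7, beside 8, 7, 7 and 7. A typical receptor peak thus rested on a handful of fragments. The local background under receptor peaks had a median of 0.45, 0.40, 0.39 and 0.53 fragments, beside 0.76, 0.68, 0.65 and 0.76 over the full lists and 0.99, 0.83, 0.80 and 0.95 under peaks of the neighbours.

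The commonest background of a list, its floor, was 0.454 with DMSO, 0.397 under OTS186935, 0.389 under doxorubicin and 0.428 under the combination. Of the receptor peaks, 65.2%, 69.7%, 60.7% and 31.6% lay within 0.01 of that floor, against 33.9%, 30.7%, 29.6% and 16.6% of the full lists and 25.8%, 21.8%, 20.8% and 9.23% of the neighbours' peaks. The background around receptor peaks was thus at the floor more often than around other peaks. The summit median was below that of the full list with DMSO, OTS186935 and doxorubicin. Under the combination it was equal, at 7 fragments. Summit medians of the neighbours' peaks were 9, 8, 7 and 8. The part of the low background in the low number of receptor peaks was not tested, and no input library was used here.

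At a −log10 q of 5 or more, the stronger peaks, receptors with a peak numbered 13 of 229 with DMSO, 9 under OTS186935, 5 under doxorubicin and 5 under the combination, beside 37.4%, 23.9%, 12.4% and 6.58% of all genes. The density ratio to the neighbours at this limit was 0.286 (0.151 to 0.502) with DMSO and 0.312 (0.136 to 0.632) under OTS186935. It was 0.444 (0.132 to 1.19) under doxorubicin and 0.438 (0.0806 to 1.57) under the combination, with intervals that include 1. By density a deficit of strong peaks was thus shown with DMSO and OTS186935 only. Of the receptor peaks, 30.4%, 27.3%, 17.9% and 15.8% were this strong, beside 25.2%, 17.6%, 10.1% and 8.49% of the full lists.

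Receptor promoters were almost free of peaks. A peak overlapped 1 of 186 receptor promoters (0.538%, 0.0136 to 2.96) in each library, that of OR2L13 each time, beside 14.3%, 9.92%, 7.04% and 5.21% of the 15813 promoters of all genes. Among promoters with fewer than 5 CpG, a class chosen after the data were seen, 0 of 180 receptor promoters had a peak in any of the 4 libraries, which allows a share of up to 2.03% in each. Promoters of other genes in that class had a peak in 4.24%, 4.15%, 2.40% and 1.41% of 2336 cases. As stated above for promoter peaks, these are shares of the promoters at hand and support no comparison of gene sets. No difference between receptors and other genes is therefore read from them in any of the 4 libraries. With the combination the upper limit for the 180 receptor promoters also lay above the share of other genes.

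The 15 clusters, formed by joining receptors less than 500 kb apart, differed in density. The distal cluster of chromosome 1, from OR2B11 to OR14I1 at 247.4 to 248.7 Mb, held 43 class II receptors and the densest peaks of the large clusters. Its receptor windows held 19 peaks with DMSO, 16 under OTS186935, 14 under doxorubicin and 8 under the combination, or 24.6, 20.7, 18.1 and 10.3 per Mb. The other 14 clusters together held 9.66, 6.08, 5.01 and 3.94 per Mb. The neighbours of the distal cluster were dense too, with 76.8, 65.3, 57.6 and 34.6 per Mb, so the ratio of receptors to neighbours was 0.320, 0.317, 0.314 and 0.299 there and 0.226, 0.167, 0.182 and 0.238 elsewhere, with overlapping intervals in each library.

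**Figure D3:**
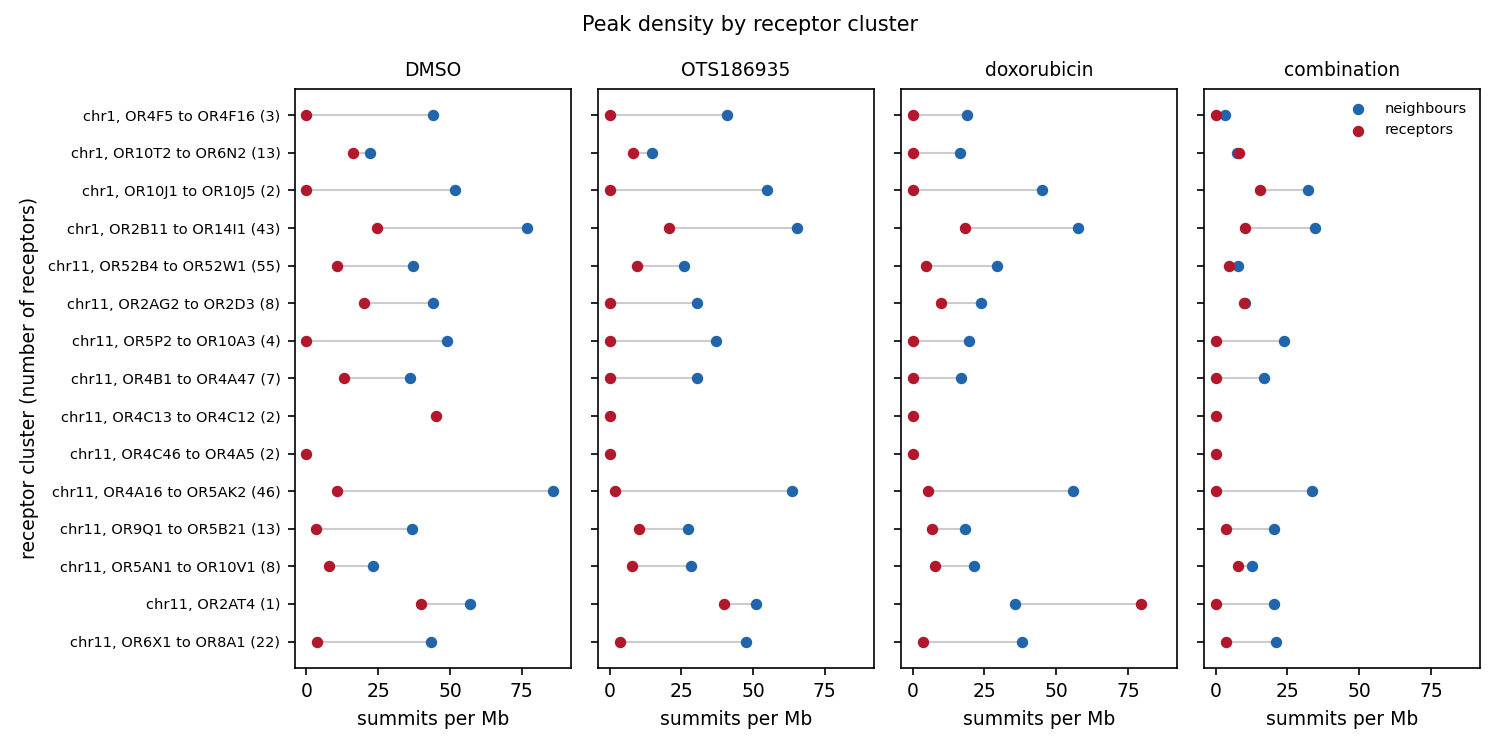
Peaks per Mb in receptor windows (red) and in the windows of neighbouring genes (blue) for each of the 15 clusters, with 1 panel per library. Clusters are named by chromosome and by their outer receptors. The axis speaks of summits, but peaks were counted by overlap with a window. Receptors lie below their neighbours wherever a cluster has neighbours, except under doxorubicin at OR2AT4 (79.6 against 35.6 per Mb on 2 receptor peaks) and under the combination from OR10T2 to OR6N2 (8.13 against 7.34 per Mb on 2 receptor peaks).

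On chromosome 11 the largest cluster, at 4.4 to 6.2 Mb around the beta globin genes, held the 55 class I receptors. It had 9 receptor peaks with DMSO, 8 under OTS186935, 4 under doxorubicin and 4 under the combination, or 10.7, 9.53, 4.76 and 4.76 per Mb, while its neighbours had 37.0, 26.1, 29.3 and 7.61 per Mb. The cluster at 55.3 to 57.0 Mb, with 46 receptors, had 6, 1, 3 and 0 receptor peaks, or 10.6, 1.77, 5.32 and 0 per Mb, beside 33.6 to 85.9 per Mb at its neighbours over the 4 libraries. The cluster at 123.8 to 124.6 Mb, with 22 receptors, had 1 receptor peak in each library, or 3.57 per Mb, beside 43.5, 47.4, 38.2 and 21.1 per Mb at its neighbours. Receptors lay below their neighbours in these 3 clusters in each library, by the least in the class I cluster under the combination.

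Receptors of the other small clusters had few peaks or none. OR4F5, OR4F29 and OR4F16, near the short-arm end of chromosome 1, had 0 peaks in each library, but no peak of any kind was listed on that chromosome before position 817157 in the lists, so nothing is known of this stretch. OR5P2 to OR10A3, 4 receptors at 7.8 Mb of chromosome 11, had 0 peaks in each library beside 37, 28, 15 and 18 at their neighbours. The OR4C46 and OR4A5 pair had no peak and no coding neighbour in reach.

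By class, 8, 7, 5 and 4 of the 55 class I receptors had a peak with DMSO, OTS186935, doxorubicin and the combination (14.5%, 12.7%, 9.09% and 7.27%). For the 174 class II receptors the counts were 30, 22, 21 and 15 (17.2%, 12.6%, 12.1% and 8.62%). The shares of both classes overlapped within their intervals in each library. Of the 15 OR2T receptors of the distal chromosome 1 cluster 2, 3, 2 and 0 had a peak, and the 0 of the combination allows a share of up to 21.8%. Receptors of a subfamily can be near-identical in sequence, so peaks there are uncertain, and how the authors treated reads with several matches is not given in the sources used here.

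**Figure D4:**
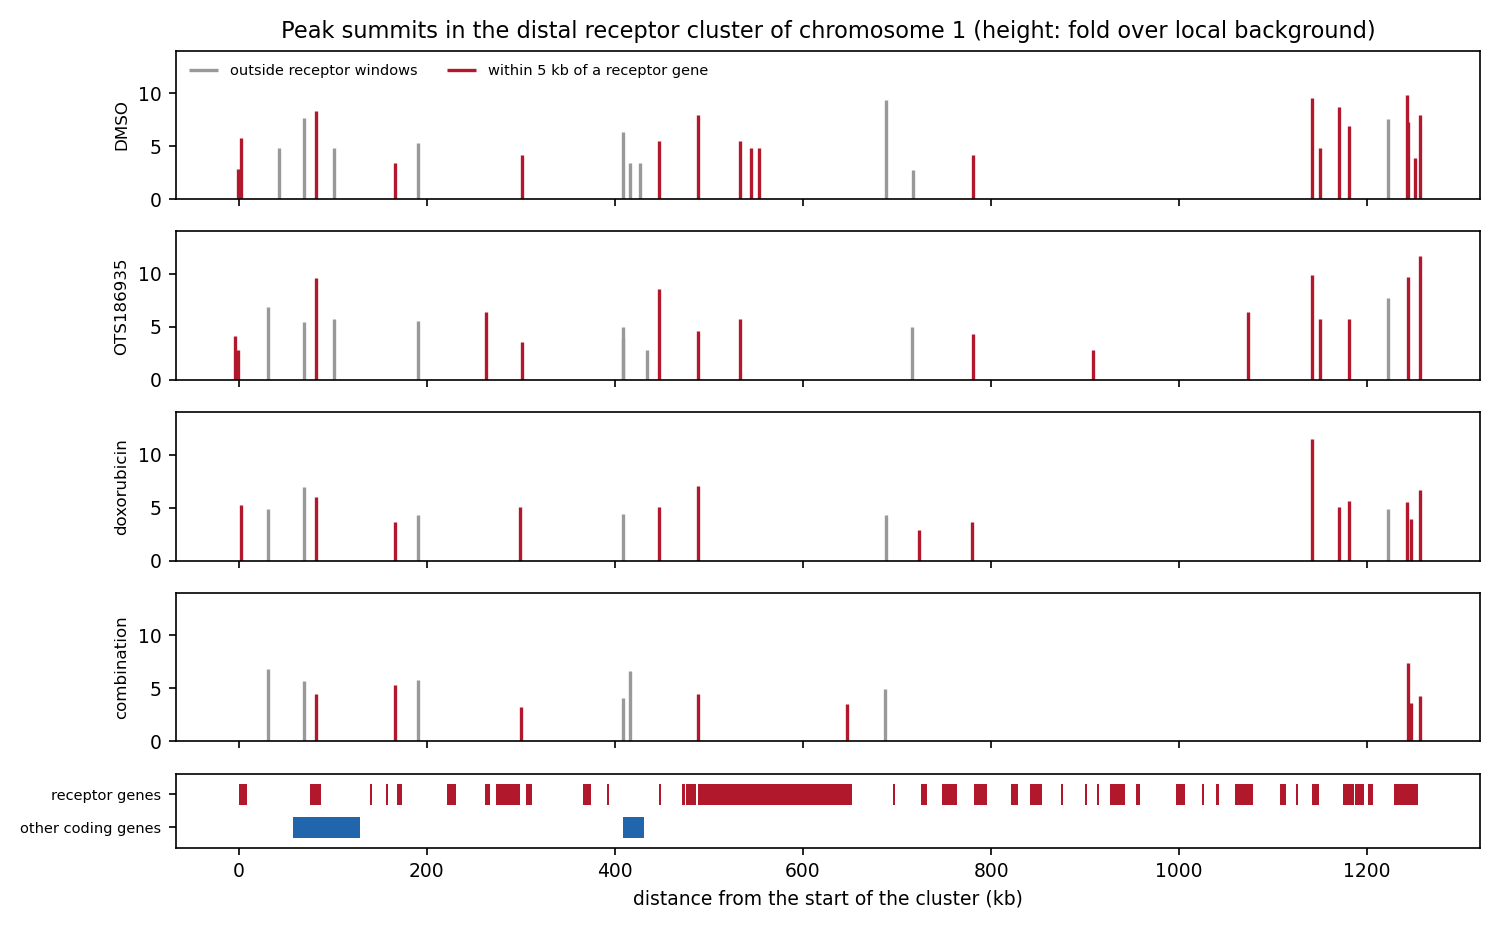
Position and fold of every peak in the distal receptor cluster of chromosome 1, by library, against distance from the cluster's start in kb, with receptor genes (red) and other coding genes (blue) drawn below. Red peaks lie within 5 kb of a receptor, and the span holds 29 peaks with DMSO, 25 under OTS186935, 20 under doxorubicin and 14 under the combination.

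OR14I1, the last receptor of the distal cluster, at chr1:248678138-248702766, had the receptor peak of highest −log10 q in the DMSO, OTS186935 and combination lists. A peak inside the gene at chr1:248691568-248692374 had a fold of 9.80 with DMSO (38 fragments at the summit, −log10 q 23.8), 9.73 under OTS186935 (33 fragments, 20.8), 5.52 under doxorubicin (13 fragments, 5.27) and 7.39 under the combination (17 fragments, 8.34). It was present in all 4 libraries, and by fold it ranked 1 of 46 receptor peaks with DMSO, 3 of 33 under OTS186935, 7 of 28 under doxorubicin and 1 of 19 under the combination. The DMSO list gives it a further summit with a fold of 7.28. Upstream of OR14I1, at 3075 bp by its DMSO summit, a separate peak had folds of 7.95, 11.7, 6.66 and 4.31, present in all 4 libraries and ranked 6, 1, 3 and 14 among the receptor peaks of each list. The local background under the peak inside the gene was 2.98, 2.49, 1.54 and 1.44 fragments, well above the floor of each list, unlike at most receptors.

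OR2T10, at chr1:248590487-248597700, had the receptor peak of highest fold and −log10 q in the doxorubicin list. The peak lay just beyond its 3′ end, at chr1:248590074-248590495 in the DMSO list, 224 to 262 bp from the gene by summit. Its fold was 9.56 with DMSO (13 fragments), 9.88 under OTS186935 (14 fragments) and 11.5 under doxorubicin (17 fragments), and no peak was listed under the combination. The peaks of the 3 lists overlapped each other. A weaker peak, 1407 bp upstream of OR2T10 in the DMSO list, had folds of 4.81 with DMSO and 5.73 under OTS186935 and was not listed in the other 2 libraries.

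OR2T11, the next member of the subfamily, followed the same pattern of presence with the peak in its gene but not with its other peak. A peak in its gene had folds of 6.88, 5.73 and 5.60 with DMSO, OTS186935 and doxorubicin, and a peak 4092 bp to the side by its DMSO summit had 8.68 with DMSO and 5.04 under doxorubicin. Neither was listed under the combination. The other OR2T receptor with a peak was OR2T4, with a fold of 2.86 under OTS186935 alone.

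OR2C3 had a peak inside the gene in all 4 libraries, with folds of 8.30, 9.64, 5.99 and 4.48 on 15, 18, 8 and 6 fragments. The gene lies in the body of GCSAML, a signalling protein gene of germinal-centre cells, so the peak cannot be assigned to either gene. It ranked 4 of 46, 4 of 33, 5 of 28 and 12 of 19 among the receptor peaks. OR2W3, a short gene of 945 bp beside TRIM58, had a peak in its body with folds of 5.50, 8.59 and 5.04 with DMSO, OTS186935 and doxorubicin and none under the combination.

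OR2L13, one of the longest receptor genes at 163987 bp, had a peak over its promoter and annotated start, printed above, in all 4 libraries. The folds were 7.97 with DMSO (17 fragments), 4.57 under OTS186935 (8 fragments), 7.04 under doxorubicin (10 fragments) and 4.48 under the combination (8 fragments). The DMSO peak at chr1:247936436-247937385 covered the whole 300 bases, and it also covered part of CLK3P2, a pseudogene of a kinase gene at chr1:247935814-247937128. The window of OR2AJ1, the gene before it, shares this peak, so OR2AJ1 counts as having a peak in all 4 libraries on the same evidence. Further along OR2L13, a peak inside the gene had folds of 5.50 with DMSO and 5.73 under OTS186935.

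OR14A2 completed the chromosome 1 receptors with a peak in all 4 libraries. A peak upstream of it, shared with the window of OR1C1, had low folds of 4.13 with DMSO, 3.58 under OTS186935 and 3.26 under the combination, and a separate peak inside the gene had 5.04 under doxorubicin. OR2C3 and OR14I1 thus had the same site listed in every library and OR14A2 did not.

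On chromosome 11 the receptors with a peak in all 4 libraries were OR51B5, OR51I2 and OR56A3, all class I. OR51B5 is annotated over 165335 bp, and OR51I2 lies in that span, so both share a peak at chr11:5461081-5461450. Its folds were 6.40 with DMSO, 8.21 under OTS186935, 4.32 under doxorubicin and 6.40 under the combination, on 9, 12, 5 and 9 fragments. OR56A3, annotated over 79760 bp, had a peak in its body at chr11:6012785-6013405 with folds of 5.71, 5.06, 5.22 and 4.97, ranked 14, 15, 8 and 8 among the receptor peaks of each list.

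Receptors annotated over more than 40 kb numbered 7. Their windows held 4, 2, 1 and 2 peaks at OR2L13, 4, 3, 2 and 2 at OR56A3 and 2, 3, 1 and 2 at OR51B5. OR9Q1 had 0, 1, 1 and 1, OR6N1 2, 1, 0 and 0, OR10J1 a single peak under the combination (fold 5.60), and OR4F16 none. Without these 7 genes, the receptors with a peak were 34, 24, 22 and 14 of 222.

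In the chromosome 1 cluster at 158.4 to 158.8 Mb, between the CD1 and PYHIN immune genes, OR6K6 had a peak upstream, at 2299 bp by its DMSO summit, with folds of 6.83 with DMSO, 7.16 under OTS186935 and 4.90 under the combination. It was absent from the doxorubicin list, where this cluster had 0 receptor peaks. OR6Y1 and OR6P1 shared a peak with a fold of 3.44 with DMSO (4 fragments) and 6.30 under the combination (8 fragments), not listed in the other 2 libraries.

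Peaks of −log10 q 5 or more at a receptor with none in the DMSO list are named here. The share of all genes under this rule was not worked out, so their number is not read as a trait of receptors. With OTS186935 such peaks were found at OR6F1 and OR2G6, each inside the gene, with a fold of 6.44 on 8 fragments. With doxorubicin there was 1, OR52I1, with a fold of 6.48 on 8 fragments, and this peak lay within 1 kb of an end of TRIM68, a ubiquitin ligase gene. With the combination there was none. OR4D10, below that limit, had an upstream peak in all 3 drug libraries (5.50 under OTS186935, 5.04 under doxorubicin and 5.54 under the combination, on 6 or 7 fragments) and none with DMSO; it was singled out after its values were seen.

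Receptors with a DMSO peak and none in a drug library included some of the strongest DMSO receptor peaks, those of OR2T10 and OR2T11 among them. For OTS186935, the 6 receptors of highest fold were OR2D3 (6.26), OR4S1 (5.50), OR5W2 (5.23), OR10A2 (4.81), OR51Q1 (4.13) and OR52H1 (4.13). OR4C11, OR5D3, OR5M8 and OR4D6 tied at 4.13 and were cut by chromosome order. For doxorubicin the 6 were OR6K6, OR4S1 and OR5W2, followed by OR51E2, OR51C1 and OR56A4 at 4.81, where OR10A2 and OR10G7 tied with them. For the combination the 6 were OR2T10, OR2T11, OR10Q1 (7.36), OR2B11 (5.78), OR2W3 and OR4S1. OR4S1 and OR5W2 had a peak with DMSO alone, on 7 fragments each, and the OR2D3 peak lay beside ZNF215, a zinc finger gene. OR10Q1 had a fold of 7.36 with DMSO, 3.58 under OTS186935 and 2.88 under doxorubicin.

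Peaks in receptor windows lay in the receptor's own body in 22 of 46 cases with DMSO, 15 of 33 under OTS186935, 14 of 28 under doxorubicin and 10 of 19 under the combination. Of the rest, 13, 10, 6 and 6 lay upstream, 7, 3, 4 and 2 downstream, and the others beside a gene whose strand was not at hand. A non-receptor coding gene lay within 5 kb in 5, 5, 4 and 3 cases, so most receptor peaks had no other coding gene near.

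The neighbours of the distal chromosome 1 cluster show what the same stretch gave at other genes. PGBD2, a transposase-derived gene 170085 bp beyond the cluster, had the highest fold of the neighbours with DMSO, 10.7, and 10.4 under OTS186935, 10.3 under doxorubicin and 4.46 under the combination. ZNF124 and ZNF695, zinc finger genes before the cluster, had folds of 8.25 and 8.23 with DMSO and peaks in all 4 libraries. TRIM58, which lies among the receptors, had folds of 6.36, 4.99, 4.42 and 6.65. On chromosome 11, FHIP1B, 11159 bp past the class I cluster, had folds of 9.94, 7.36, 6.12 and 5.56. The top folds of receptors and neighbours were thus of like size, while a smaller share of receptors had a peak. The peaks differed in their surroundings too, since the median local background was lower under receptor peaks in each library. With DMSO it was 0.45 fragments, against 0.99 under the neighbours' peaks.

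Genes lodged in the clusters or lying beside them were mixed. Of the 5 beta globin genes, which lie in the class I cluster, HBE1, the embryonic globin, had a peak under doxorubicin, with a fold of 2.88, and the other 4 had none in any of the 4 libraries. Of 12 TRIM genes among the neighbours, which encode ubiquitin ligases, 7 had a peak with DMSO, 6 under OTS186935, 8 under doxorubicin and 1 under the combination (58.3%, 50.0%, 66.7% and 8.33%), beside 70.0%, 65.0%, 60.1% and 41.9% of the neighbours and 78.6%, 72.1%, 65.4% and 50.7% of all genes. TRIM6, TRIM34 and their joint entry TRIM6-TRIM34 lie in the body of TRIM5, so the same peak can count for several of them. The joined windows of the 12 TRIM genes held 11, 9, 10 and 2 peaks. TRIM5, an antiviral factor, had folds of 4.81, 5.01 and 4.90 in the first 3 libraries and no peak under the combination. TRIM48, TRIM51 and TRIM51G had 0 peaks in each library.

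A fixed list of 13 genes linked to odorant signalling, which mostly lie elsewhere, had peaks at a share near that of all genes. It also holds LHX2, EBF1 and LDB1, which are no part of the signalling cascade. Of the 13 genes 12 had a peak with DMSO, 11 under OTS186935, 9 under doxorubicin and 6 under the combination, or 92.3%, 84.6%, 69.2% and 46.2%, near the 78.6%, 72.1%, 65.4% and 50.7% of all genes. Their windows held 49.6, 42.4, 29.5 and 16.5 peaks per Mb, above the 35.3, 28.0, 21.6 and 13.0 of all protein-coding genes. GNAL, the G protein subunit that couples receptors to adenylyl cyclase, held 18, 14, 12 and 7 peaks in 196422 bp of gene. ANO2, the chloride channel that amplifies the response, held 15, 11, 11 and 6, and CNGB1, a channel subunit, 10, 9, 3 and 4. ADCY3, the cyclase itself, held 12, 8, 7 and 0. RTP1 and RTP2, chaperones that bring receptors to the cell surface, had a peak in all 4 libraries, with RTP2 at folds of 7.19, 6.45, 6.12 and 5.35. CNGA4, a channel subunit beside the class I cluster, had folds of 3.41, 7.14 and 4.91 in the first 3 libraries and none under the combination.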

How the data were processed

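The peak lists of 4 γH2AX libraries of SK-UT-1 cells, 1 per condition, were used. The submitters' processing notes name the build hg38, MACS2 2.2.7.1 (a peak caller), Bowtie2 2.4.2 (an aligner), bedtools 2.30.0 and Picard 2.25.3. How each was set, and whether an input was used, is not given in the sources used here. A line of a deposited list holds 1 summit with the authors' fold over local background (a ratio), −log10 p, −log10 q and a score, which is 10 times that −log10 q without its decimals; the lowest −log10 q was 1.00 in each list. Depth is not stated. The fragments at a summit, and those expected from its surroundings, follow from fold, read as (pileup + 1) / (background + 1), and −log10 p, read as a Poisson tail; pileups matched within 0.002 on the −log10 p scale in 100.0% of lines, with a second solution in 566, 2109, 423 and 1400 lines.

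Receptors, windows of 5 kb, clusters and neighbours (500 kb) are as given in the report. Gene positions came from a RefSeq table without exons, and strand from its promoter table. Intervals are exact Clopper-Pearson or Poisson 95% intervals. The members and lists were chosen with earlier results of these data known. Named were the 6 receptors of highest fold per library, those with a peak in all 4, those with a peak of −log10 q 5 or more in a drug library and none with DMSO, the 6 of highest fold the other way, up to 3 neighbours per cluster, and members of the fixed lists; not all are printed. Alternatives were −log10 q of 5, merged peaks, other windows, equal list lengths, other neighbour distances and cluster gaps, and 5 sets added after the data were seen. Counting was tested on simulated data. Python 3.11.15, numpy 2.4.6, pandas 2.3.3, scipy 1.17.1 and matplotlib 3.10.9 were used.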

Additional observations from a re-analysis of the deposited data

How the results depend on the processing

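The receptors with a peak, 38, 29, 26 and 19 with DMSO, OTS186935, doxorubicin and the combination, became 13, 9, 5 and 5 at a −log10 q of 5 or more, 16, 14, 12 and 8 with gene bodies alone, and 8, 7, 7 and 2 within 1 kb of gene ends. With 10 kb either side they became 44 with OTS186935 and 40 with doxorubicin, and with lists of equal length 16 with DMSO and 17 with OTS186935. The other 20 counts stayed within 1.5 times the reported ones. The ratio of receptor to neighbour density was 0.105, 0.108, 0.135 and 0.0563 at gene ends. At a −log10 q of 5 or more it was 0.444 with doxorubicin (0.132 to 1.19) and 0.438 with the combination (0.0806 to 1.57). Against neighbours inside the cluster spans alone, added after the data were seen, it was 0.608, 0.571, 0.630 and, reversed on 3 neighbour peaks, 1.42 with the combination. The intervals of the ratios against neighbours inside the cluster spans all included 1. So did those for doxorubicin and the combination at a −log10 q of 5 or more. At gene ends the intervals of all libraries lay wholly below 1. Of 60 ratios over all settings and libraries, 59 were below 1 and 54 had an interval wholly below 1; the cause of the shifts was not tested beyond the fewer peaks or bases each setting holds. An alternative without receptors of near-identical protein sequence was not run, as no protein sequences were used here. No paired analysis was possible because each group has 1 library. Receptor counts are small, so a change under a few peaks is not detectable.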

Other observations

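Receptor genes of the other chromosomes were less bare of peaks than those of chromosomes 1 and 11 together, by most against chromosome 11. Of 158 such receptors, 50 had a peak with DMSO (31.6%, 24.5 to 39.5), 47 under OTS186935 (29.7%), 46 under doxorubicin (29.1%) and 35 under the combination (22.2%). Their windows held 28.6, 23.9, 19.6 and 15.3 peaks per Mb. In the same order of libraries, the receptors of chromosome 1 had a peak in 26.2%, 26.2%, 19.7% and 18.0% of cases. On chromosome 11 the share was 13.1%, 7.74%, 8.33% and 4.76%, and over all genes 78.6%, 72.1%, 65.4% and 50.7%. OR4M1 on chromosome 14 had folds of 10.0, 9.29, 7.32 and 6.78, OR2I1 on chromosome 6 had 8.55, 5.91, 8.47 and 6.78, and OR3A2 on chromosome 17 had 9.02, 7.22, 6.43 and 5.28. The 10 receptors of chromosome 3 had 0 peaks in each library, while 11, 8, 11 and 3 of the 20 receptors of chromosome 19 had one.

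The immune genes beside the chromosome 1 receptors at 158.4 Mb gave scattered peaks. AIM2, a sensor of cytosolic DNA annotated over 92082 bp, had a peak in all 4 libraries with folds of 5.88, 6.73, 8.02 and 6.88. Of the 5 CD1 genes, which present lipid antigens, 3, 2, 2 and 1 had a peak. Of 4 MS4A genes near the receptors at 59.4 Mb of chromosome 11, 0, 1, 1 and 1 had one. Receptor pseudogenes of chromosomes 1 and 11 had a peak in 26, 22, 15 and 7 of 226 cases, or 11.5%, 9.73%, 6.64% and 3.10%. The share of all protein-coding genes, to set beside each of these lists, was 78.6%, 72.1%, 65.4% and 50.7%.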
